A study of Mus musculus with 15 samples.

Results

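The colon of healthy C57 mice was compared between 12 and 7 weeks of age, over 8 of the 15 arrays of the study: the 4 arrays titled as C57 colon of week 12 (mice 63, 64, 65 and 66) and the 4 titled as C57 colon of week 7 (mice 43, 44, 45 and 46). Each array carried the RNA of 1 mouse. The mice of both ages were male C57BL/6J mice with an intact Il10 gene, which reached the study at an age defined as 5 weeks, were housed singly on AIN-76A powder diet, and were given by mouth, 4 days after arrival, Enterococcus faecalis strains mixed with other gut bacteria. Their daily ration followed what Il10-/- mice (B6.129P2-Il10<tm1Cgn>/J) had eaten the day before, and a fast-feed period preceded sampling. The 7 arrays of Il10-/- mice, 4 of 12 weeks and 3 of 7 weeks, entered the same fit and so shaped the spread estimated for each gene. Otherwise they served only to show where the age difference of C57 mice stood apart. Because all mice arrived and were inoculated at the same age, age cannot be told apart from time since inoculation, time on the diet or the day of sampling. The arrays carry no slide or hybridization batch in the sources used here.

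The lining of the colon is renewed throughout life from stem cells at the crypt base. Their daughters divide, move up the crypt and mature into absorptive colonocytes, which take up water, salts and short-chain fatty acids, or into secretory cells: mucus-forming goblet cells and hormone-releasing enteroendocrine cells. Beneath the epithelium lie immune cells, connective tissue, smooth muscle and enteric nerves, and full-thickness tissue such as that used here contains all of them. In such bulk samples, fewer cells of a type and less RNA per cell cannot be told apart.

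Values are log2 ratios of colon RNA over a pooled reference of small intestine, colon, kidney, liver and fetal RNA, so 0 means the same signal as the pool. They show relative levels of a gene across mice, not levels between genes. The 15 liver genes of a marker list had means of −3.74 to −3.08 at 12 weeks and −3.11 to −2.98 at 7 weeks, which puts colon in the numerator. Defining markers of the labelled tissue were all measured, among them the villin gene Vil1 of the epithelial brush border (mean 0.28 at 12 weeks and −0.06 at 7 weeks), the goblet cell mucin gene Muc2 (1.29 and 1.44) and the smooth muscle myosin gene Myh11 (1.75 and 1.77). Between 41687 and 42147 of 44290 features had a value on each C57 array. Arrays of C57 mice correlated with r = 0.83 to 0.96 over genes with a value on every array. Mouse 66 of the 12-week group had the lowest values (0.83 to 0.89), followed by mouse 43 of the 7-week group (0.83 to 0.93). Mouse 66 also stood apart in small intestine genes, with a list mean of −0.81 over 23 genes, against −1.82 to −1.68 in the other 12-week mice and −1.58 to −1.44 in 7-week mice. Il10 itself, which both ages carry, differed by 0.04 ± 0.08 (SE) between them (adjusted p = 0.86).

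Of 19076 genes tested, 44 (0.231%) were called higher and 33 (0.173%) lower at 12 weeks than at 7 weeks, 77 genes or 0.404% in all. These shares are the background for every count of called list members below. Calls rested on limma's adjusted p (Benjamini-Hochberg, under 0.05) together with a difference of at least 1.5-fold. The spread of each gene, and with it every SE and p, came from all 15 arrays. With only the 8 C57 arrays fitted, 79 genes were called, 62 of them among the 77. On the adjusted p alone, 137 genes (0.718%) were higher and 67 (0.351%) lower at 12 weeks. Among the 77, 18 genes were higher and 8 lower by 2-fold or more. The median log2 difference over all genes was 0.00, and 50.3% of the genes lay above 0. The 4 and 4 mice did not overlap for 76 of the 77 called genes, against 8.62% of all genes. Calls rest on the same values, so this separation follows in large part from the calling and is no separate support. In simulated data a planted 2-fold change was called in 96% of genes and a 1.5-fold change in 46%. The simulated noise was normal, independent between genes and equal in spread across groups. Deviations that many genes of 1 mouse share were not simulated, so detection in the real data may be lower. Leaving out 1 C57 mouse at a time gave 36 to 96 calls, the fewest without mouse 44 of the 7-week group, and 32 of the 77 genes (23 higher and 9 lower) were called in all 8 of these fits. Without mice 43 and 66 together, a choice made after the data were seen, 40 genes were called (24 higher and 16 lower), 37 of them among the 77. The other 40 of the 77 lost their call in that fit, among them Slc26a3, Bmp3, Col8a1, Slc40a1, Chga and St3gal1. Below, this loss is named only for genes that kept their call without any 1 mouse.

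**Figure D1:**
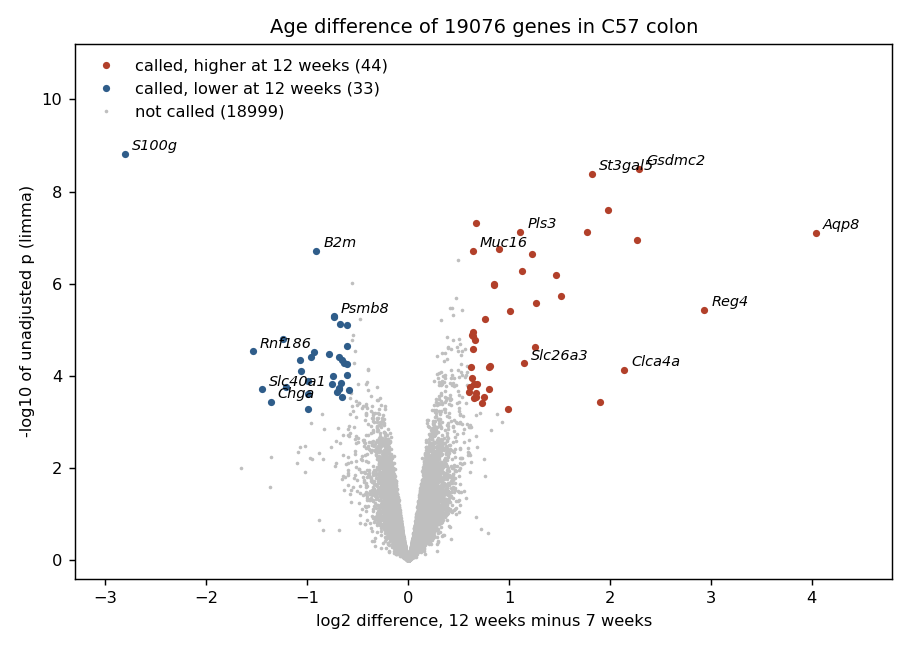
Log2 difference (12 weeks minus 7 weeks, x axis) of every gene in C57 colon against −log10 of its unadjusted limma p (y axis). Called genes are coloured, 44 higher and 33 lower at 12 weeks, and Aqp8 and S100g lie farthest out in their directions.

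Genes of mature surface colonocytes held the largest rise. Aqp8, a water channel of the surface epithelium, showed 1.52, 1.80, 1.85 and 2.30 at 12 weeks, against −2.25, −2.35, −2.11 and −1.99 at 7 weeks (mice in the order given above). Every 12-week mouse lay above the reference pool and every 7-week mouse below it. The log2 difference of 4.04 ± 0.42 (SE) equals 16.4-fold, with adjusted p = 0.00019, and stayed between 3.90 and 4.15 when any 1 mouse was left out. Slc26a3, the chloride-bicarbonate exchanger of the apical membrane, had 1.26, 1.11, 1.62 and 1.95 at 12 weeks, against 0.37, 0.25, 0.37 and 0.36 at 7 weeks. The groups were apart (1.15 ± 0.21, adjusted p = 0.014, call lost without mouse 44 with adjusted p up to 0.055), although of its 3 features 2 differed by 1.95 and 1.45 and the third by 0.05. The neighbouring genes Clca4a and Clca4b encode regulators of calcium-activated chloride channels. Clca4a had −0.50, −0.56, −0.56 and 0.77 at 12 weeks and averaged −2.36 ± 0.28 (SD, n = 4) at 7 weeks, with mouse 66 well above the other 12-week mice. It differed by 2.14 ± 0.40 (adjusted p = 0.017, call lost without mouse 44, 45 or 66 with adjusted p up to 0.068), and Clca4b by 1.90 ± 0.42 (adjusted p = 0.041, call lost without mouse 43, 44, 45, 46, 64, 65 or 66 with adjusted p up to 0.14). Their sequences are alike, so the 2 values may not be separate measurements.

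Not all colonocyte genes moved that way. Slc9a3, the sodium-hydrogen exchanger of the brush border and a gene outside the naming rule, fell, with −0.15, −0.22, −0.28 and −0.43 at 12 weeks, against 0.49, 0.50, 0.34 and 0.60 at 7 weeks (−0.75 ± 0.15, adjusted p = 0.024, call lost without mouse 43, 44, 45, 46, 64, 65 or 66 with adjusted p up to 0.084). Of its 2 features, 1 carried this difference (−1.36) and the other did not (−0.14). The carbonic anhydrase genes Car1 and Car4 had differences of −0.18 ± 0.15 and −0.38 ± 0.17, Krt20, a keratin of surface cells, of −0.12 ± 0.14, and Vil1 of 0.34 ± 0.12, none called. Of 27 measured members of the surface colonocyte list, 5 were called higher and 1 lower, against 0.231% and 0.173% of all genes, 16 lay above 0 and 11 below, and the median log2 difference was 0.08 (down to −0.05 under scale or quantile normalization). The fifth called rise was that of the phosphate carrier gene Slc20a1 (0.65 ± 0.10, call lost without mouse 66, below 1.5-fold), whose 2 features differed by 1.20 and 0.09. The list mean was highest in mouse 66 and 0.56 to 0.69 in the other 12-week mice, against 0.30 to 0.44 in the 7-week mice. The median over the list did not separate the ages, with 0.48, 0.38, 0.47 and 0.86 in 12-week mice, against 0.56, 0.62, 0.46 and 0.36 in 7-week mice. Without mice 43 and 66, 2 members were called higher and 0 lower. The part of mouse 66 in the size of these rises was not tested beyond leaving it out.

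Gasdermin genes of the C family rose together. Gasdermins form pores in membranes after cleavage, and this family is expressed in gut epithelium. Gsdmc2 had 1.52, 1.15, 1.59 and 1.82 at 12 weeks, against −0.54, −0.90, −0.62 and −1.02 at 7 weeks. Gsdmc had 1.67, 1.08, 1.62 and 2.00 at 12 weeks, against −0.52, −0.83, −0.60 and −0.78 at 7 weeks. Gsdmc3 averaged 1.41 ± 0.29 (SD, n = 4) at 12 weeks, against −0.58 ± 0.14 (SD, n = 4) at 7 weeks. In each of them the lowest 12-week mouse, mouse 64, stood more than 1 log2 unit above the highest 7-week mouse, mouse 43. The differences were 2.29 ± 0.19, 2.27 ± 0.24 and 1.99 ± 0.19 (SE), or 4.9-, 4.82- and 3.96-fold, with adjusted p = 2.6e-05, 0.00024 and 0.00012. All 3 calls were kept in 19 refits with other processing or without some mice, treat and other fold thresholds aside. The genes are close copies of each other on chromosome 15 with 1 feature each, and whether the features tell the copies apart was not tested.

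Secretory genes also rose, but only a few of them. Reg4, a secreted lectin of deep crypt secretory cells, showed 2.19, 2.06, 2.33 and 1.83 at 12 weeks, against −0.94, −0.67, −0.87 and −0.85 at 7 weeks. Its difference of 2.94 ± 0.42 (7.65-fold, adjusted p = 0.0027) was second only to that of Aqp8 among called rises. Spink4, a protease inhibitor made by goblet cells, had 2.23, 2.04, 2.14 and 1.93 at 12 weeks, against −0.01, 0.22, 0.72 and 0.32 at 7 weeks (1.77 ± 0.19, 3.42-fold, adjusted p = 0.00019). Retnlb, a goblet cell protein that acts on bacteria, lay below the pool in all mice, at −1.17, −1.75, −1.58 and −1.95 at 12 weeks, against −3.33, −3.11, −2.07 and −2.98 at 7 weeks (1.26 ± 0.21, adjusted p = 0.0091). The 12-week mice were the higher group for all 3 genes, without overlap, which the choice of the largest rises required. The calls of Reg4 and Spink4 were kept in all 19 refits, and that of Retnlb in the 18 that held it, since its only feature lies on all 7 Il10-/- arrays at a log2 ratio that many features of the array share. Those Il10-/- values varied little (SD 0.06 at 12 weeks and 0.16 at 7 weeks, against 0.33 and 0.55 in C57 mice). They entered the SE and p of Retnlb, which may therefore be too small, although its call was kept with only the C57 arrays fitted. Other goblet cell genes did not pass the test. Spink4 and Retnlb were the only called members of the 22 measured in the goblet cell and mucin list, where 0.231% of all genes were called higher. The median of the list was 0.01, with 12 members above 0 and 10 below. Muc2 differed by −0.15 ± 0.22, the trefoil factor gene Tff3 by 0.23 ± 0.12, and Clca1, another goblet cell product, by −0.41 ± 0.18, none called.

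The remaining genes among the 15 largest rises have other roles. St3gal5, the sialyltransferase that makes the ganglioside GM3, had 0.04, 0.42, 0.79 and 1.05 at 12 weeks, against −1.13, −1.15, −1.45 and −1.26 at 7 weeks, a 3.54-fold difference (1.82 ± 0.15, adjusted p = 2.6e-05). Mpp6, a membrane scaffold gene, had 0.24, 0.38, 0.64 and 1.30 at 12 weeks, against −0.83, −0.93, −0.87 and −0.85 at 7 weeks (1.51 ± 0.20, adjusted p = 0.0018). Slc37a2, a sugar-phosphate exchanger of the endoplasmic reticulum, had 0.85, 0.81, 1.06 and 1.95 at 12 weeks, against −0.29, −0.29, −0.19 and −0.44 at 7 weeks (1.47 ± 0.18, adjusted p = 0.00078). Mouse 66 was the highest of the 12-week mice in these 3 genes, and without it they were still called. Mpst, a sulfurtransferase that takes part in making hydrogen sulfide, differed by 1.27 ± 0.18 (2.41-fold, adjusted p = 0.0023). Epop, a partner of chromatin-modifying complexes, differed by 1.23 ± 0.14 (2.34-fold, adjusted p = 0.00034). Mpst lay at 2.12 to 2.63 in 12-week mice and 0.88 to 1.14 in 7-week mice.

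**Figure D2:**
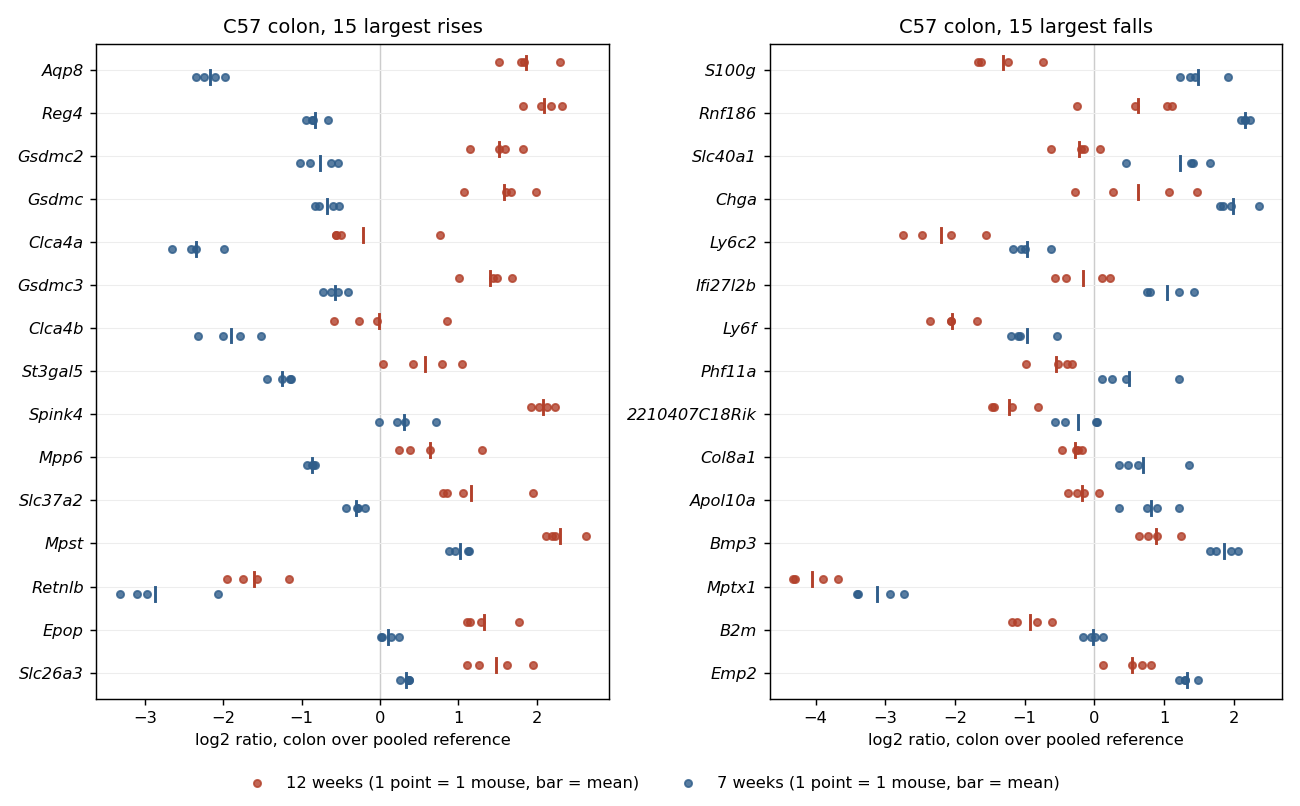
Log2 ratio of colon over pooled reference (x axis) in each C57 mouse for the 15 largest called rises (left) and falls (right), 12 weeks drawn above 7 weeks, with bars at group means. The genes were chosen among calls whose points do not overlap between the 2 ages. Mouse 66 sets the outer 12-week value for Clca4a (0.77) and Rnf186 (−0.25).

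Among the smaller called rises were carriers and enzymes of epithelial metabolism. Slc16a1, the monocarboxylate carrier that takes up butyrate and lactate, had 0.95, 1.03, 1.00 and 1.44 at 12 weeks, against 0.23, 0.18, 0.19 and 0.42 at 7 weeks (0.85 ± 0.11, adjusted p = 0.0011), and its features differed by 1.15, 1.11 and 0.30. It was the only called member of 26 measured genes of sodium, chloride and potassium transport, whose median was 0.01. Slc2a1, the basal glucose carrier, had −0.28, −0.23, −0.18 and 0.13 at 12 weeks, against −0.80, −0.78, −0.77 and −0.69 at 7 weeks (0.62 ± 0.11, adjusted p = 0.015, call lost without mouse 43, 44, 45 or 66 with adjusted p up to 0.055). It was the only one called of 31 measured genes of glycolysis, gluconeogenesis and sugar transport. Of 64 measured genes of xenobiotic metabolism 2 were called higher and 0 lower, against 0.231% and 0.173% of all genes. These were Aadac, a microsomal esterase (0.80 ± 0.15, adjusted p = 0.015, call lost without mouse 43, 44 or 66 with adjusted p up to 0.068), and Abcg2, an apical efflux pump (0.68 ± 0.14, adjusted p = 0.032, call lost without mouse 43, 44, 45, 46, 64, 65 or 66 with adjusted p up to 0.11). In that list 40 members lay above 0 and 24 below, with a median of 0.07. At unadjusted p under 0.05 (limma), 13 members were higher and 4 lower, against 6.9% and 6.27% of all genes. Without overlap of the mice, 11 were higher and 3 lower, against 4.91% and 3.71%. Muc16, a membrane mucin and the only called member of the mesothelium and serosa list (12 measured, 10 above 0, median 0.09), had 0.49, 0.67, 0.58 and 0.43 at 12 weeks, against −0.19, 0.05, −0.10 and −0.16 at 7 weeks (0.64 ± 0.07, adjusted p = 0.00031). Hsp90aa1, an inducible heat shock chaperone, was the only called gene whose mice overlapped, with 0.09, 0.36, −0.27 and −0.12 at 12 weeks, against −1.07, −0.98, −0.88 and −0.20 at 7 weeks, since mouse 46 lay at −0.20 (0.80 ± 0.16, adjusted p = 0.028, call lost without mouse 43, 44, 45, 63, 64 or 66 with adjusted p up to 0.1 or with only the C57 arrays fitted).

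Several further rises lie outside the naming rule and were chosen after their values were seen. Pls3 and Pls1 encode plastins, which bundle actin, Pls1 in the brush border. Pls3 had 0.05, 0.26, 0.49 and 0.46 at 12 weeks, against −1.17, −0.56, −0.67 and −0.79 at 7 weeks (1.11 ± 0.12, adjusted p = 0.00019), and Pls1 differed by 0.68 ± 0.14 (adjusted p = 0.024, call lost without mouse 43, 44, 45 or 66 with adjusted p up to 0.086 or with only the C57 arrays fitted). Acsl3, which activates long-chain fatty acids, had 1.58, 1.90, 1.68 and 2.07 at 12 weeks, against 0.77, 1.00, 1.02 and 0.85 at 7 weeks (0.90 ± 0.10, adjusted p = 0.00031). Every 12-week mouse exceeded every 7-week mouse in each of them. St3gal1, a second sialyltransferase, differed by 0.64 ± 0.10 (adjusted p = 0.0068, call lost without mouse 66, below 1.5-fold), and the cornified envelope gene Sprr2e by 0.85 ± 0.11 (adjusted p = 0.0011).

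The largest fall was that of S100g, the gene of calbindin-D9k, a cytosolic calcium carrier of absorptive cells that vitamin D induces. It had −1.63, −1.23, −0.74 and −1.68 at 12 weeks, against 1.92, 1.37, 1.24 and 1.44 at 7 weeks. All 7-week mice stood above the pool and all 12-week mice below it. The difference of −2.81 ± 0.22 is a 7.01-fold fall with adjusted p = 2.6e-05, kept in all 19 refits. Other genes of calcium entry and vitamin D response did not pass the test: the calcium channel gene Trpv6 differed by −0.07 ± 0.08, the vitamin D receptor gene Vdr by −0.06 ± 0.15 and the vitamin D hydroxylase gene Cyp24a1 by 0.14 ± 0.10. Slc40a1, ferroportin, which exports iron from the cell, had −0.15, 0.07, −0.18 and −0.62 at 12 weeks, against 1.67, 1.42, 1.39 and 0.45 at 7 weeks (−1.45 ± 0.30, 2.73-fold lower, adjusted p = 0.028). Its 7-week mouse 46 lay close to the 12-week mice, and the call was lost without mouse 43, 44, 45, 64, 65 or 66 (adjusted p up to 0.1). S100g and Slc40a1 were the called members, both lower, among 20 measured genes of calcium and iron handling (median −0.05), where 0.173% of all genes were called lower.

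Other falls were those of genes with varied roles. Rnf186, a ubiquitin ligase of intestinal epithelium, had 1.11, 1.04, 0.58 and −0.25 at 12 weeks, against 2.23, 2.16, 2.11 and 2.16 at 7 weeks (−1.54 ± 0.26, 2.91-fold lower, adjusted p = 0.0097). The 7-week mice lay close together, while the 12-week mice were spread widely with mouse 66 lowest. Emp2, a tetraspan membrane protein gene, differed by −0.79 ± 0.14 (adjusted p = 0.01, call lost without mouse 44 with adjusted p up to 0.051). Bmp3, a divergent ligand of the bone morphogenetic protein family, had 0.90, 1.24, 0.78 and 0.64 at 12 weeks, against 1.66, 2.06, 1.96 and 1.75 at 7 weeks (−0.97 ± 0.17, adjusted p = 0.011, call lost without mouse 44 with adjusted p up to 0.051), the only call among 39 measured genes of Wnt, BMP and Hedgehog signalling. Mptx1, a secreted pentraxin of the gut lining, fell by 0.94 with SE 0.16 (adjusted p = 0.0097), at ratios far below the pool, and the call was lost under scale or quantile normalization and without mice 43 and 66 together. Col8a1, a short-chain collagen gene, differed by −0.99 ± 0.19 (adjusted p = 0.023, call lost without mouse 44, 45, 64 or 66 with adjusted p up to 0.072). Nr1h4, the bile acid receptor FXR and a gene outside the naming rule, had 0.59, 0.20, 0.28 and 0.44 at 12 weeks, against 1.07, 1.09, 1.10 and 0.94 at 7 weeks (−0.67 ± 0.10, adjusted p = 0.0042).

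Most enteroendocrine genes had lower means at 12 weeks, though only Chga passed the test. Chga, chromogranin A, a granule protein of hormone-secreting cells, had 1.47, 0.27, 1.07 and −0.27 at 12 weeks, against 1.97, 2.37, 1.84 and 1.81 at 7 weeks. All 7-week mice lay at 1.81 or more and all 12-week mice below that, but the 12-week mice ranged widely, mice 64 and 66 being the low ones. The difference was −1.36 ± 0.30 (adjusted p = 0.041, call lost without mouse 43, 44, 45, 46, 64 or 66 with adjusted p up to 0.14 or with only the C57 arrays fitted). Chgb, chromogranin B and outside the naming rule, followed the same mice, with 1.68, −0.03, 1.22 and −0.89 at 12 weeks, against 1.86, 2.03, 1.75 and 1.76 at 7 weeks, and was not called (−1.36 ± 0.42, adjusted p = 0.16). Nor were the hormone genes Pyy (−0.52 ± 0.15, adjusted p = 0.12), Sst (−0.59 ± 0.16), Gcg (−0.39 ± 0.18) and Nts (−1.02 ± 0.36). Of 29 measured enteroendocrine genes 1 was called, lower, against 0.173% of all genes, while 22 lay below 0 and 7 above, with a median of −0.15. At unadjusted p under 0.05, 13 members were lower and 1 higher, against 6.27% and 6.9% of all genes. The list mean was 0.21, 0.03, 0.16 and −0.07 in 12-week mice, against 0.33, 0.39, 0.31 and 0.29 in 7-week mice, without overlap. The list median overlapped, from −0.04 to 0.15 in 12-week mice and from 0.14 to 0.21 in 7-week mice.

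Several genes of class I antigen presentation fell. These molecules show peptides cut by the proteasome to CD8 T cells, and interferons raise their expression. B2m, the light chain shared by all class I molecules, had −1.10, −1.18, −0.83 and −0.61 at 12 weeks, against 0.12, −0.05, 0.02 and −0.16 at 7 weeks (−0.91 ± 0.10, 1.88-fold lower, adjusted p = 0.00031). Of its 3 features 2 differed by −1.22 and −1.19 but lie, on at least 1 C57 array, at a log2 ratio that 73 to 147 features of the array share, and the third, which does not, differed by −0.33 (adjusted p = 0.24 when used alone). The size of the fall of B2m is therefore uncertain. Car1, Krt20, Vil1 and H2-K1 also have a feature at such a value. Psmb8, an immunoproteasome subunit, had −1.36, −1.55, −1.17 and −1.12 at 12 weeks, against −0.29, −0.58, −0.60 and −0.78 at 7 weeks (−0.74 ± 0.11, adjusted p = 0.0033). H2-T10, a nonclassical class I chain, had −0.14, −0.24, 0.21 and −0.19 at 12 weeks, against 0.85, 0.62, 0.66 and 0.45 at 7 weeks (−0.73 ± 0.11, adjusted p = 0.0032). The ages did not overlap in any of these 3 genes, but they did in the B2m feature that is at no shared value.

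Of 25 measured genes of the class I and immunoproteasome list, 5 were called lower and 0 higher, against 0.173% and 0.231% of all genes. B2m is counted among them, although its call was lost without the features at a shared value. The other 2 were H2-Q4 (−0.61 ± 0.12, adjusted p = 0.019, call lost without mouse 43, 44, 45, 63 or 64 with adjusted p up to 0.082) and H2-Q2 (−0.60 ± 0.10, adjusted p = 0.0091, call lost without mouse 43, 44 or 64, below 1.5-fold), chains of the Q region whose close sequences may share signal. The classical chain genes H2-D1 (−0.55 ± 0.09, adjusted p = 0.0065) and H2-K1 (−0.41 ± 0.09, adjusted p = 0.044) stayed below the fold threshold. In all, 21 members lay below 0 and 4 above, the median was −0.37, and 12 members were lower in every 12-week mouse than in every 7-week mouse, against 3.71% of all genes. Those above 0 included the peptide transporter gene Tap1 (0.10 ± 0.14) and the class I transactivator gene Nlrc5 (0.42 ± 0.15, adjusted p = 0.24). Leaving out 1 mouse gave 3 to 9 lower calls and medians of −0.41 to −0.32, and without mice 43 and 66 there were 3 and a median of −0.31. Of the class II genes, 0 of 12 were called, with a median of −0.07.

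Most genes of a separate interferon response list also had lower means at 12 weeks, and Bst2 was the only listed one called. Bst2, tetherin, which holds budding viruses at the cell surface, had −1.10, −1.42, −0.73 and −1.29 at 12 weeks, against −0.13, −0.42, −0.66 and −0.58 at 7 weeks (−0.68 ± 0.14, adjusted p = 0.027, call lost without mouse 43, 44, 64 or 66 with adjusted p up to 0.097 or with only the C57 arrays fitted or under scale normalization). Of the 38 measured genes of the interferon list, 35 lay below 0 and 3 above, 17 were lower and 0 higher at unadjusted p under 0.05, against 6.27% and 6.9% of all genes, and the median was −0.28. Mouse 43 of the 7-week group had a list mean of 0.09, against −0.40, −0.45 and −0.55 in mice 44, 45 and 46 and −0.76, −0.65, −0.45 and −0.61 in the 12-week mice. Without mice 43 and 66 the median was −0.14. The list means of the remaining 7-week mice overlap those of the 12-week mice.

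Among the 15 largest falls, 5 others were those of Phf11a, Ifi27l2b, Apol10a and the Ly6 genes Ly6c2 and Ly6f. Phf11a, a member of a plant homeodomain finger family, had −0.40, −0.52, −0.32 and −0.98 at 12 weeks, against 1.21, 0.45, 0.25 and 0.11 at 7 weeks (−1.06 ± 0.20, adjusted p = 0.017, call lost without mouse 44 or 66 with adjusted p up to 0.055 or with only the C57 arrays fitted), mouse 43 being highest. Ifi27l2b, a small membrane protein gene of the Ifi27 family, had 0.11, −0.57, 0.22 and −0.41 at 12 weeks, against 1.43, 1.21, 0.80 and 0.75 at 7 weeks (−1.21 ± 0.25, adjusted p = 0.026, call lost without mouse 43, 44, 45, 64 or 66 with adjusted p up to 0.099). Apol10a, an apolipoprotein L gene, differed by −0.99 ± 0.23 (adjusted p = 0.049, call lost without mouse 43, 44, 45, 64, 65 or 66 with adjusted p up to 0.16). In these 3 genes mouse 43 was the highest of all 8 mice. The Ly6 surface protein genes Ly6c2, a marker of monocytes, and Ly6f differed by −1.24 ± 0.20 (adjusted p = 0.0072) and −1.07 ± 0.19 (adjusted p = 0.013). Ly6c2 had −1.55, −2.74, −2.06 and −2.48 at 12 weeks and averaged −0.96 ± 0.24 (SD, n = 4) at 7 weeks, and both calls were lost without mice 43 and 66 together (adjusted p = 0.079 and 0.1). These neighbouring genes are close in sequence with 1 feature each, so the 2 values may not be separate measurements. The macrophage and dendritic cell list as a whole had 0 of 30 members called and a median of −0.01.

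The promoters of the called genes were searched for the core of the interferon-stimulated response element, spelled GAAA, then 2 bases of any kind (NN), then GAAA, on both strands of the 250 bases before the RefSeq start (GRCm38.p6). Of 33 genes called lower 27 had a window and 4 of these held the motif, a share of 14.8%, while 0 of 32 with a window among the 44 called higher did. Over all tested genes with a window the share was 3.44%, and over all windows of that length 2.98%. In the interferon list it was present in 15 of 29 and in the class I list in 3 of 21. A match describes the letters only. The 4 windows are shown because they belong to the called falls that hold the motif, with the motif in capitals, written along the gene's strand: B2m (chr2:122147437-122147686, plus strand), Bst2 (chr8:71537473-71537722, minus strand), Phf11a (chr14:59297523-59297772, minus strand) and Apol10a (chr15:77476797-77477046, plus strand).
B2m: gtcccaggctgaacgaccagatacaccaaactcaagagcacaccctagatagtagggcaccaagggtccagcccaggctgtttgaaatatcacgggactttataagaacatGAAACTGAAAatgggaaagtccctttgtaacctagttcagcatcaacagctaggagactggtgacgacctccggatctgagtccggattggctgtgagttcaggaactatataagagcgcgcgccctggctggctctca
Bst2: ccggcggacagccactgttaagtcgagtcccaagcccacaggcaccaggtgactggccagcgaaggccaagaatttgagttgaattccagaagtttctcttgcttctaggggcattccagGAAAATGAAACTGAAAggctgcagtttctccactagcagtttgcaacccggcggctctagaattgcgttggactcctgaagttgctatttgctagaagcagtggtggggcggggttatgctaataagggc
Phf11a: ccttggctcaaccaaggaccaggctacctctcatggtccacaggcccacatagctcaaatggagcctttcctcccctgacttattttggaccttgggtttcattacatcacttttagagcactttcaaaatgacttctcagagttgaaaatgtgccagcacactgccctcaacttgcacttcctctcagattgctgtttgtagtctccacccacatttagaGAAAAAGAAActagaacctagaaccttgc
Apol10a: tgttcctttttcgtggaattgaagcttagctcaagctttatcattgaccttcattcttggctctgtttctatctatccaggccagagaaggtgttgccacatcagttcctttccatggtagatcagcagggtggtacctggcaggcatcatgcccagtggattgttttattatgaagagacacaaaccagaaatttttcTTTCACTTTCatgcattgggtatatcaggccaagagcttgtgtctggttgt
In B2m, Bst2, Phf11a and Apol10a the first motif base lies 139, 130, 29 and 51 bases before the start. In Bst2, 2 copies overlap. In Apol10a the motif is on the opposite strand.

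**Figure D3:**
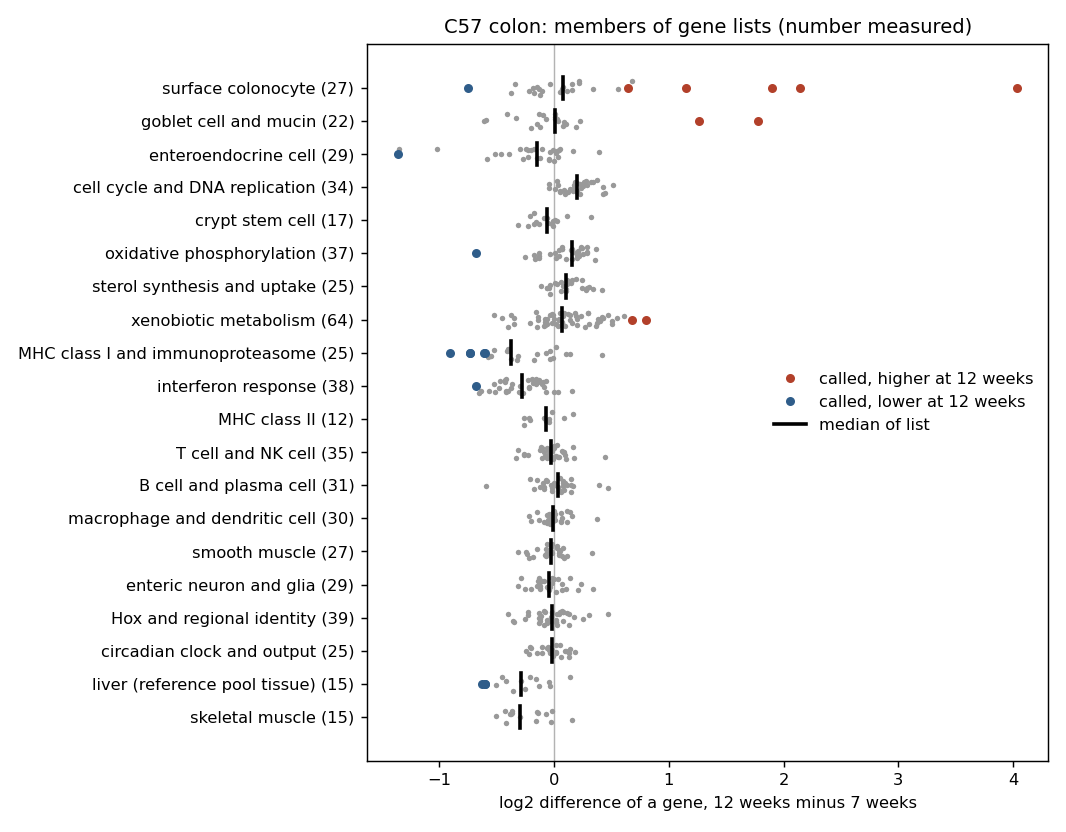
Log2 difference (12 weeks minus 7 weeks, x axis) of the measured members of 20 gene lists in C57 colon, with list size in brackets. Grey points are members that were not called, coloured points called members, and black bars list medians, from −0.37 for class I to 0.20 for the cell cycle.

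Most listed genes of division and of oxidative phosphorylation had slightly higher means at 12 weeks, and none of them was called higher. Of 34 measured cell cycle genes 32 lay above 0 and 2 below, with a median of 0.20, yet limma called none, and 7 were higher and 0 lower at unadjusted p under 0.05, against 6.9% and 6.27% of all genes. Rrm2, a subunit of ribonucleotide reductase, came nearest, with −2.13, −2.08, −2.09 and −1.97 at 12 weeks, against −2.43, −2.73, −2.47 and −2.43 at 7 weeks (0.45 ± 0.11, adjusted p = 0.078). Tyms, thymidylate synthase, differed by 0.29 ± 0.11 and the proliferation marker Mki67 by 0.37 ± 0.18. The list mean was 0.24, 0.12, 0.04 and −0.01 in 12-week mice, against −0.20, −0.18, −0.13 and 0.08 in 7-week mice, so that mouse 46 lay within the 12-week range. In oxidative phosphorylation 29 of 37 genes lay above 0 and 8 below, with a median of 0.15 and 18 higher and 2 lower at unadjusted p under 0.05, against the same shares of all genes. Its means were −0.16, −0.06, −0.17 and −0.13 at 12 weeks, against −0.28, −0.24, −0.20 and −0.18 at 7 weeks, just without overlap. The only call in that list ran the other way: Ndufa4, a subunit associated with cytochrome oxidase, had −1.02, −1.23, −1.65 and −1.74 at 12 weeks, against −0.97, −0.74, −0.65 and −0.56 at 7 weeks (−0.68 ± 0.14, adjusted p = 0.027, call lost without mouse 44, 45, 46, 65 or 66 with adjusted p up to 0.093 or with only the C57 arrays fitted or under scale normalization). Cox7a1, a cytochrome oxidase subunit that is not in the list and lies outside the naming rule, was called higher, with −0.97, −0.71, −0.94 and −0.55 at 12 weeks, against −1.47, −1.56, −1.30 and −1.46 at 7 weeks (0.66 ± 0.13, adjusted p = 0.024, call lost without mouse 43, 44, 46, 64 or 66 with adjusted p up to 0.091). Sterol synthesis genes had 0 of 25 called and a median of 0.10, with 19 above 0 and 6 below. At unadjusted p under 0.05, 4 were higher and 0 lower, and 5 were higher and 0 lower without overlap, against 4.91% and 3.71% of all genes.

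**Figure D4:**
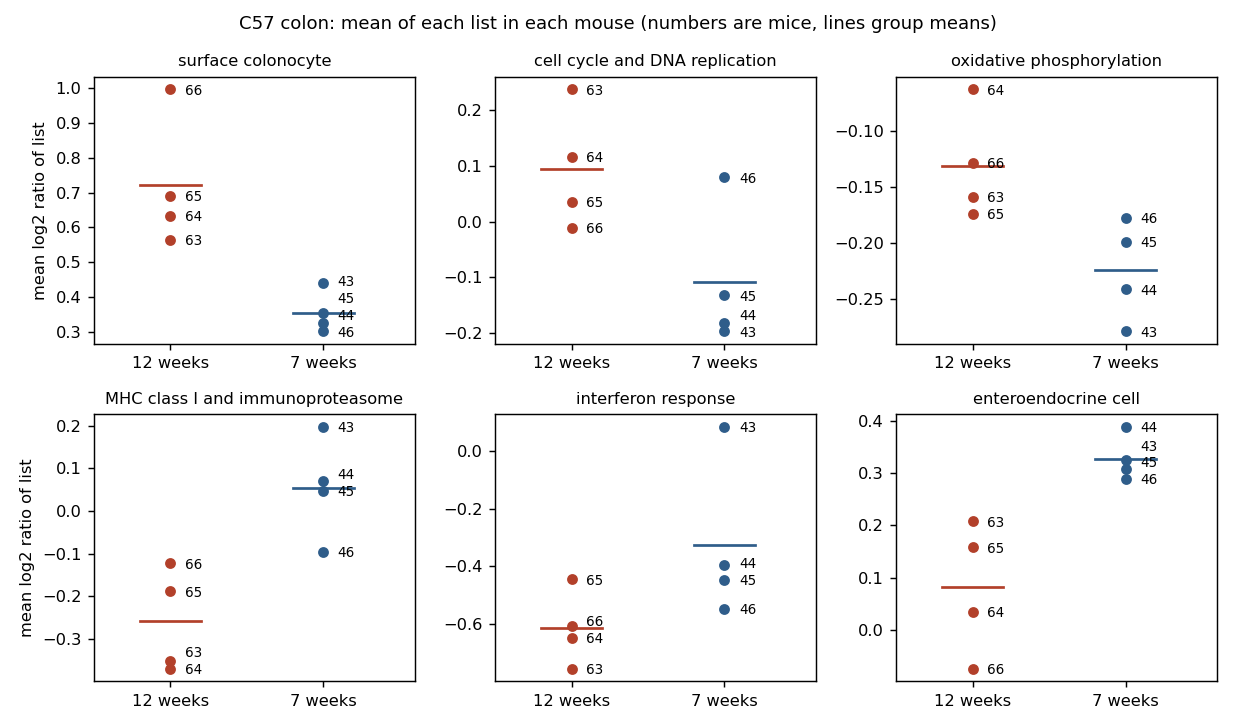
Mean log2 ratio of 6 gene lists (y axis) in each C57 mouse, 12 weeks left of 7 weeks, with mouse numbers beside the points and lines at group means. These means are apart between the ages for the surface colonocyte, oxidative phosphorylation, class I and enteroendocrine lists (the list medians of the surface colonocyte and enteroendocrine lists overlap), while mouse 43 alone stands high for interferon genes and mouse 46 lies among the 12-week mice for the cell cycle.

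Markers of most other tissue components gave no calls. No member was called in the lists of crypt stem cells (17 measured, median −0.06), T and NK cells (35, −0.03), B and plasma cells (31, 0.04), macrophages and dendritic cells (30, −0.01), granulocytes and mast cells (25, 0.05), cytokines and chemokines (40, 0.01), smooth muscle (27, −0.03), enteric neurons and glia (29, −0.04) or collagen and matrix (37, −0.05, a list without Col8a1, which was called lower). Of the crypt stem cell genes 13 lay below 0, 4 were lower and 1 higher at unadjusted p under 0.05, against 6.27% and 6.9% of all genes, and 4 were lower without overlap, against 3.71%. The ubiquitin ligase gene Rnf43, which limits Wnt receptors, came nearest among them (−0.23 ± 0.07, adjusted p = 0.15). At the same unadjusted p, 4 of 25 granulocyte and mast cell genes were higher, 4 of 29 neuron and glia genes and 4 of 35 T and NK cell genes lower, and the other 5 lists had at most 3 members in either direction. The 39 Hox and regional genes had a median of −0.02 and none called, although Hoxa5 differed by −0.40 ± 0.08 with adjusted p = 0.029, below the fold threshold. The distal genes Hoxa13 (−0.13 ± 0.10), Hoxb13 (−0.09 ± 0.09) and Hoxd13 (−0.02 ± 0.05) were not called. The 25 clock and clock output genes had none called and a median of −0.02, and among the core genes the differences ran from −0.22 (Per1) to 0.13 (Npas2). In the lists of tissues that a colon sample need not hold, Krt16, a keratin of squamous epithelium, was the only one called of 20 (0.65 ± 0.14, adjusted p = 0.037, call lost without mouse 43, 44, 45, 46, 63, 64 or 65 with adjusted p up to 0.13 or with only the C57 arrays fitted), and Ldhc, a lactate dehydrogenase of testis, the only one of 12 (0.74 ± 0.16, adjusted p = 0.042, call lost without mouse 43, 44, 45, 46, 63, 64 or 66 with adjusted p up to 0.13). Smooth muscle genes were low in mouse 63 (list mean −0.11, against 0.21 to 0.34 in the other 12-week mice and 0.15 to 0.26 at 7 weeks).

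Some falls concerned genes of tissues in the reference pool. Ambp (−0.63 ± 0.11), Ahsg (−0.60 ± 0.09) and Apoc1 (−0.60 ± 0.11), which encode plasma proteins made by the liver, were called lower at ratios far below 0. Ambp had −5.21, −4.83, −4.69 and −4.59 at 12 weeks, against −4.26, −4.19, −4.10 and −4.24 at 7 weeks. In the liver list 14 of 15 genes lay below 0 (median −0.29), and in the skeletal muscle list likewise 14 of 15 (median −0.30, none called). Under quantile or scale normalization the liver median ranged up to 0.21 and the skeletal muscle median up to 0.15, and the 3 calls were lost, as each was without mouse 63 or 44. At such ratios most signal comes from the pool, and mouse 63 had the lowest list means (−3.74 for liver and −3.62 for skeletal muscle). Apoe, which macrophages as well as liver make, had −2.10, −2.49, −1.87 and −2.31 at 12 weeks, against −1.65, −1.02, −1.60 and −1.68 at 7 weeks (−0.70 ± 0.15, adjusted p = 0.03), a call kept in 10 of 19 refits, lost under both normalizations, with only the C57 arrays fitted, and without mouse 43, 44, 45, 64 or 66 with adjusted p up to 0.096.

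The age difference of C57 mice was then set beside that of Il10-/- mice, which lack the anti-inflammatory cytokine interleukin-10 and develop colitis. Per the paper, the 7-week Il10-/- arrays came from mice without colitis, since inflamed mice of that age were left out. The 12-week Il10-/- arrays came from mice with moderate colitis. In Il10-/- mice, age therefore cannot be told apart from colitis, and their age difference below includes both. The 2 comparisons share no mice. In Il10-/- mice 57 genes (0.299%) were called higher and 23 (0.121%) lower at 12 weeks than at 7 weeks. None of the 44 rises of C57 was called higher there, and none of the 33 falls was called lower (limma), where 0.299% and 0.121% of all genes were. At unadjusted p under 0.05 1 of the 44 was higher and 2 of the 33 were lower in Il10-/- mice. The share of all genes at that p was not counted in Il10-/- mice. With calls this rare, these counts do not show whether the age changes are shared. In the opposite direction, Slc26a3 was called lower, and Apoe and 2210407C18Rik were called higher. The difference of the age effects itself was called for 219 genes (1.15%). The unnamed cDNA gene 2210407C18Rik had −0.81, −1.18, −1.46 and −1.43 at 12 weeks, against −0.42, 0.03, 0.04 and −0.56 at 7 weeks in C57 mice (−0.99 ± 0.21, adjusted p = 0.032, call lost without mouse 43, 44, 45, 64, 65 or 66 with adjusted p up to 0.12), and differed by 1.01 ± 0.23 with age in Il10-/- mice.

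For Aqp8 the age difference was −0.98 ± 0.46 in Il10-/- mice, against 4.04 ± 0.42 in C57 mice, and the difference between them was −5.02 ± 0.62 (adjusted p = 0.0017). The 4 Il10-/- mice of 12 weeks averaged −0.34 and the 3 of 7 weeks 0.63, between the ages of C57. S100g stood at −3.13 and −3.18 in Il10-/- mice of 12 and 7 weeks, below the C57 mice of either age, and its age effects differed by 2.85 ± 0.32 (adjusted p = 0.00088). For 2210407C18Rik (2.01 ± 0.31, adjusted p = 0.004), Clca4a (−2.49 ± 0.59, adjusted p = 0.039) and Slc26a3 (−2.19 ± 0.31, adjusted p = 0.0027) the difference between the genotypes was also called, and these were the other largest ones among genes called in C57. Choosing genes by their C57 difference, which is subtracted here, favours such differences. In Il10-/- mice St3gal5 differed by 0.16 ± 0.17 and Gsdmc2 by 0.43 ± 0.21 with age, not called, and both age effects differed from C57 (adjusted p = 0.0024 and 0.0039). Reg4 differed by 1.05 ± 0.45 with age in Il10-/- mice, and the difference from C57 was not called (−1.88 ± 0.62, adjusted p = 0.13). The 12-week Il10-/- mice ranged from −1.08 to 1.64 around a mean of −0.31 (SD 1.31), against an SD of 0.03 at 7 weeks. That spread entered the SE of all these Reg4 differences, so whether its rise is shared between the genotypes cannot be told. Psmb8 had an age difference of 0.43 ± 0.12 in Il10-/- mice and differed between the genotypes (1.17 ± 0.16, adjusted p = 0.0024). B2m differed too (0.93 ± 0.15, adjusted p = 0.0056), but its feature that is at no shared value gave 0.29 ± 0.18 (adjusted p = 0.43). The class I list had a median age difference of −0.37 in C57 mice and 0.11 in Il10-/- mice, and the cell cycle list of 0.20 in C57 mice and −0.09 in Il10-/- mice.

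**Figure D5:**
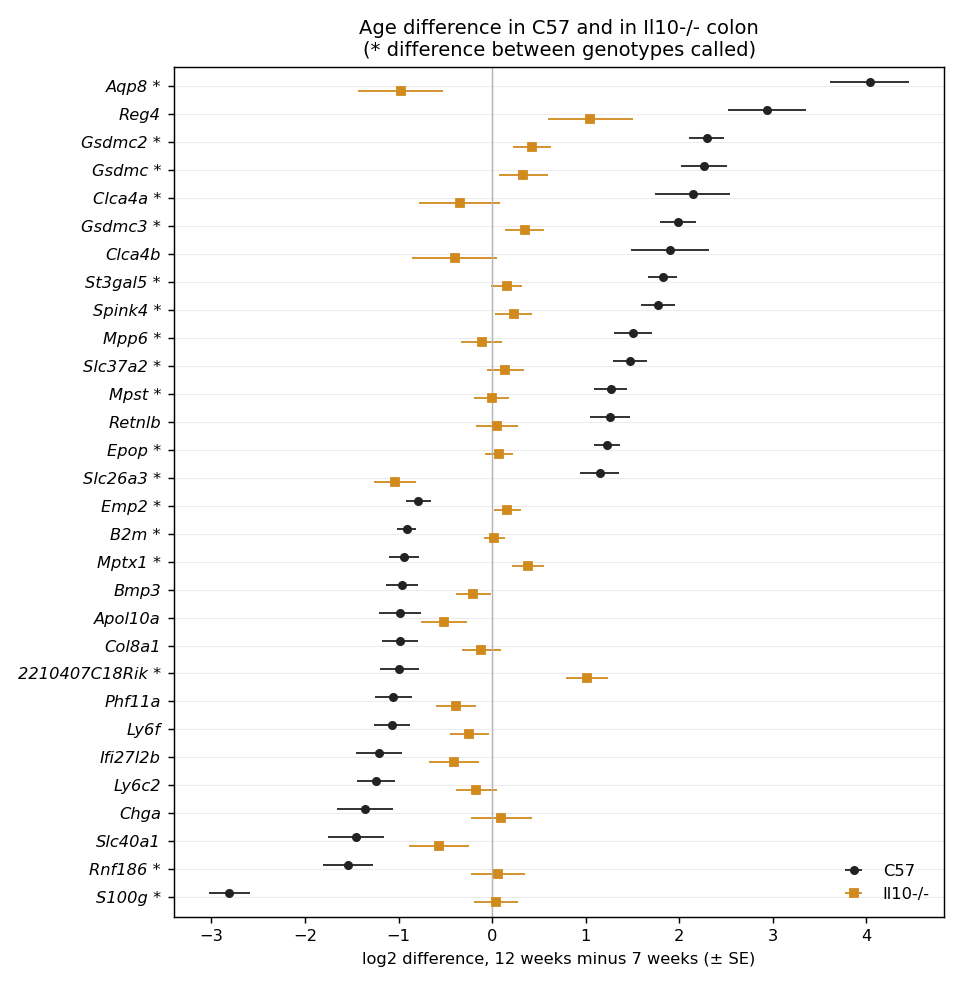
Log2 difference (12 weeks minus 7 weeks, ± SE, x axis) of the 15 largest rises and 15 largest falls of C57 colon, in C57 mice (circles, 4 and 4 mice) and Il10-/- mice (squares, 4 and 3 mice). The genes were chosen for their C57 difference, and stars mark genes whose age difference itself differed between the genotypes, such as Aqp8 at 4.04 in C57 and −0.98 in Il10-/- mice. The only feature of Retnlb and 2 of 3 features of B2m lie at a shared value on Il10-/- arrays.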

How the data were processed

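Colon RNA of single mice (Cy3) was hybridized against a pooled reference (Cy5) on 2-colour Agilent mouse arrays, with no dye swaps. Per the labels and the study's methods, the authors normalized the ratios with loess within each array in limma (no version given), without background correction, and deposited 1 log2 ratio per feature and array. These deposited log2 values were used without further normalization. Of 44290 features, 42128 were present on 2 or more arrays per group, and the 32016 of these with 1 annotated symbol were averaged to 19076 genes, 10818 of them with 1 feature. The 10112 others entered no gene value. Groups follow the array titles, since the characteristics give every array the same strain and an age of 5 weeks.

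Genes were fitted in limma 3.58.1 (R 4.3.3) with lmFit and eBayes on the 4 group means of all 15 arrays (11 residual degrees of freedom), with contrasts of 12 minus 7 weeks in C57, the same in Il10-/-, and their difference. p values were adjusted by Benjamini-Hochberg over all genes, and calls needed a fold of 1.5 and adjusted p under 0.05. The labels give mouse numbers, so replicates are separate mice, and the number of arrays limits the precision. Errors are SE unless stated. Planted changes in simulated data of 18716 genes served to test the fit.

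The comparison and the 44 gene lists were chosen with earlier results of these data known. Named genes are the 15 largest rises and falls among called genes whose mice do not overlap, per list up to 4 called members by size of change or, with none called, up to 2 by smallest p, the 5 largest called differences between genotypes among genes called in C57, and Il10 and core clock genes. Other genes named are outside this rule and were picked with their values known, as tissue markers or members of a list under discussion. Alternatives were only the C57 arrays, median centring, scale or quantile normalization, array weights, a robust variance prior, the most variable feature, every feature as a probe, genes with all values, the more variable genes, no features at a value that many features of an array share, other fold thresholds, treat and leaving out each C57 mouse. Tables and figures came from pandas 2.3.3, matplotlib 3.10.9 and numpy 2.4.6 under Python 3.11.15.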

Additional observations from a re-analysis of the deposited data

Results flagged for a closer look

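In 94 groups of 4 mice of called genes, 5 held a mouse set apart from the other 3, where chance flags about 1 in 20. The flag compares the gap to the next mouse with the range of the group, not with a fixed distance. Among 12-week mice these were mouse 66 for Clca4a (0.77) and Slc16a1 (1.44), both above the others. Among 7-week mice they were mouse 44 for Slc26a3 (0.25, below the others) and Apoe (−1.02, above) and mouse 45 for Apoc1 (−3.34, above). The 7-week mice still lay close together for Slc26a3 (0.25 to 0.37) and Apoc1 (−3.45 to −3.34).

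The age difference differed between genotypes by the test of the difference itself (Il10-/- minus C57, log2). The genes below were chosen for their C57 difference, which this contrast subtracts, so the signs follow in large part from that choice. Among genes higher at 12 weeks in C57, it was −5.02 for Aqp8, −2.49 for Clca4a, −2.19 for Slc26a3, −1.93 for Gsdmc, −1.87 for Gsdmc2 and −1.64 for Gsdmc3. It was −1.66 for St3gal5, −1.62 for Mpp6, −1.54 for Spink4, −1.33 for Slc37a2, −1.27 for Mpst and −1.16 for Epop. It was −1.45 for Aadac, −1.12 for Slc16a1 and −1.07 for Abcg2. Among genes lower at 12 weeks in C57, it was 2.85 for S100g, 2.01 for 2210407C18Rik, 1.61 for Rnf186, 1.32 for Mptx1 and 0.95 for Emp2. For class I genes it was 1.17 for Psmb8, 0.93 for B2m (0.29 and not called without features at a shared value), 0.87 for H2-Q4 and 0.79 for H2-T10. For genes of the liver it was 1.68 for Apoe, 1.03 for Ambp, 0.88 for Ahsg and 0.88 for Apoc1.

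Among 10112 features without 1 gene symbol, 15 were called between the ages of C57, 10 higher and 5 lower at 12 weeks. They were not analysed further.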

How the results depend on the processing

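Over 19 other fits, 17 of 45 named called genes kept their call in all, and over the 18 fits that held Retnlb and Ly6c2 Retnlb did. None changed direction. Treat, other fold thresholds and single probes are not among these fits. Leaving out 1 C57 mouse gave 36 to 96 called genes, against 77 with all mice, and 148 to 254 for the difference between genotypes, against 219. Without mouse 44 and without mouse 45 the C57 count was 36 and 46. Without mice 43 and 66, chosen after seeing the data, it was 40, and 135 for the difference between genotypes. With every feature as a probe it was 139. Without a fold threshold 204 genes were called and 430 between genotypes, with a fold of 2 26 and 58, and with treat against 1.5-fold 7 and 3. Median centring, scale and quantile normalization gave 77 to 93 calls with 54.8% to 58.4% higher, against 57.1%. The cause of these changes was not tested, other than that thresholds and smaller groups act by construction. No paired analysis was possible because the C57 groups share no mouse numbers. Differences under 2-fold are limited by the number of mice, and at ratios far below 0 the pool gives most of the signal.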
